A study of Mus musculus with 18 samples.

Results

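Feeders are fibroblast layers on which embryonic stem (ES) cells are grown, and the RNA of feeders alone was compared here between control feeders and feeders labelled p53-defective across all genes. The comparison used 6 of the 18 mouse mRNA libraries of a study of p53, fibronectin, integrins and ES cell pluripotency, chosen by their titles: 3 of control feeders and 3 of p53-defective feeders. Both groups are embryonic fibroblasts per the labels, cultured without ES cells. The allele or agent behind the p53 label, the strain, the embryonic age, the passage and any growth arrest of the feeders are not given in the sources used here, nor is whether the 3 libraries of a group came from separate embryos or cultures, so p-values measure the spread between these libraries. The other 12 libraries, of ES cells, entered the estimate of that spread and the filter on low counts, and so also the number of genes tested and the adjustment of p.

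Levels are in CPM, counts scaled to a common library size with edgeR's TMM factors, and changes are log2 fold changes of p53-defective over control feeders with their standard error (SE), from edgeR's quasi-likelihood test. Calls were made at 0.05 on p-values adjusted by Benjamini-Hochberg over all genes tested, and every adjusted p below is of this kind. Library totals were 17.48 M to 17.71 M (mega) counts in control and 15.12 M to 16.71 M in p53-defective feeders, so that 1 count stood at 0.0566 to 0.0635 CPM. The deposited table pairs reads with transcripts by estimation, which leaves genes with near-identical copies uncertain. Libraries of a group correlated at 0.9907 or higher across genes and libraries of different groups at 0.8564 to 0.8665. P53-defective replicate 3 stood apart from its group by a chi-square of counts over genes, per degree of freedom. The value was 27.31 and 23.01 against replicates 1 and 2, compared with 3.15 between replicates 1 and 2. Control replicate 3 stood apart as well, by less, at 10.9 and 8.59 against control replicates 1 and 2, compared with 3.91 between those. For several results that moved without p53-defective replicate 3, the value without it is given too, and other results are given with all libraries only.

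The feeders differed across most of the transcriptome. Of 15389 genes tested, 11433 (74.3%) were called, 5528 (35.9%) higher and 5905 (38.4%) lower in p53-defective feeders, and the 3 libraries of one group lay wholly above or below the other for 74.0% of genes. Without p53-defective replicate 3, 5498 were higher and 5996 lower. With the 6 feeder libraries alone 13485 genes were tested, of which 5052 were higher and 5306 lower. A change of at least 2-fold was called for 36.1% of genes, 15.3% higher and 20.7% lower. The median log2 fold change over all genes tested was -0.01. With genes at 0 counts in a group set to the bound that 3 counts allow, 2342 genes were at least 2-fold higher and 3150 lower, and 36 were at least 100-fold higher and 217 lower. The counts of each gene group below are read against these shares.

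The transcription factor p53 is held low by the ubiquitin ligase Mdm2 and, after DNA damage or oncogenic stress, activates genes of cell cycle arrest, apoptosis and repair, Cdkn1a and Mdm2 among them. Its DNA element is a pair of short sites, each around a CATG core. Fibroblast feeders are known for a secreted matrix of collagens, elastic fibres and fibronectin, which integrins on the cell surface bind.

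Short stretches of promoters place the main gene groups on the genome. They are RefSeq sequences on build GRCm38.p6, from 250 bases before to 50 after a start site, written 5′ to 3′ on the gene's strand. The first is that of Cdkn1a, the p21 gene (chr17:29090729-29091028, plus strand), from a start site upstream of the gene's main one, with the paired p53 site cores and the bases between them in capitals.
Cdkn1a: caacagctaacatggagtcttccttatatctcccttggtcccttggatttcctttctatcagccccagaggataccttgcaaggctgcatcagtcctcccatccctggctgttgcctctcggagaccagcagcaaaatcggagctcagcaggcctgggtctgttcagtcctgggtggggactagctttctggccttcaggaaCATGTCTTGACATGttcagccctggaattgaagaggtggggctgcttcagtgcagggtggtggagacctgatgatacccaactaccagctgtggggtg
Rsad2, the viperin gene (chr12:26456403-26456702, minus strand), and Ifit3 (chr19:34583279-34583578, plus strand) are shown for the interferon-stimulated genes, of which 19 of 20 fell. Matches to the interferon response element, all read on the opposite strand, are in capitals, 1 in Rsad2 and 2 in Ifit3.
Rsad2: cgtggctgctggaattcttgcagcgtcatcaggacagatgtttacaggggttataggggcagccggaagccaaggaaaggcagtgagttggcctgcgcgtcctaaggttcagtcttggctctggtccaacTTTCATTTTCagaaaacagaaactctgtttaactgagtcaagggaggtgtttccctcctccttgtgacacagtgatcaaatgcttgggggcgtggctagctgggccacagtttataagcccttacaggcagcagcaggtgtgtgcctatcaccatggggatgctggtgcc
Ifit3: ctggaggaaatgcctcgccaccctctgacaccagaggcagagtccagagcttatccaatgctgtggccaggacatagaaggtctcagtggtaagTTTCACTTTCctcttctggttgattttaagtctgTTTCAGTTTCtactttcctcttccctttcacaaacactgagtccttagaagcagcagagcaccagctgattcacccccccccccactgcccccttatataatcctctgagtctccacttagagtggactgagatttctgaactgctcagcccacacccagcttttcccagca
Cenpf, a kinetochore gene, is shown for the G2/M genes, which all rose (chr1:189688037-189688336, minus strand), with the cell cycle homology element in capitals.
Cenpf: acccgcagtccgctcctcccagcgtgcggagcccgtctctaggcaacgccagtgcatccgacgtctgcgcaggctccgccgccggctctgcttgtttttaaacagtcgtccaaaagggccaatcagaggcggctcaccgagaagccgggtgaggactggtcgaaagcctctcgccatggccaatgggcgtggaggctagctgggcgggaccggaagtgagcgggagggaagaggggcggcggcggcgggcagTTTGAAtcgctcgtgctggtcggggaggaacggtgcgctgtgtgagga

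The motif letters were counted on both strands in the promoters of each group, over genes with a promoter in the table. The interferon response element, GAAA, any 2 bases and GAAA, was in 9 of 16 interferon-stimulated genes (56.2%), against 3.77% of 12136 tested genes with a promoter and 3.44% of all 32851 promoters. The cell cycle homology element, written TTTGAA or TTCGAA, was in 17 of 21 G2/M genes (81.0%), against 16.8% of tested genes and 19.2% of promoters. The CCAAT box, letters CCAAT, was in 19 of 21 of them (90.5%), against 43.2% of tested genes and 37.4% of promoters. The p53 site pair, CATG, any 6 bases and CATG, was in 1 of 30 p53 targets, Cdkn1a, against 0.363% of tested genes and 0.712% of promoters. The sterol element TCACNCCAC was in 1 of 13 cholesterol synthesis genes, Hmgcs1, against 1.41% of tested genes and 1.24% of promoters. These matches describe letters in a window and not bound sites.

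The p53 gene was transcribed in every feeder library, and its known targets were mostly lower in the p53-defective feeders. Trp53 (Entrez 22059, chromosome 11 from 69580348 to 69591873 on GRCm38) stood at 123, 124 and 112 CPM in control and 326, 317 and 244 CPM in p53-defective replicates 1, 2 and 3. All p53-defective libraries were above all control libraries, replicate 3 the least (log2 fold change 1.31 ± 0.09, adjusted p = 1.07e-11). The rise was in both curated transcripts: NM_011640 went from 106, 107 and 95.3 to 296, 288 and 218 CPM and NM_001127233 from 13.3, 13.04 and 12.8 to 24.5, 23.3 and 17.3 CPM. The predicted transcript XM_030245923 was listed at 0 in the control libraries and at 5.38, 4.96 and 6.75 CPM in the p53-defective ones. RNA levels do not show whether functional protein was made.

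Of 5 genes that restrain p53, 3 were lower, 1 higher and 1 not called. Mdm2, on chromosome 10, stood at 433, 446 and 431 CPM in control and 176, 166 and 149.7 CPM in p53-defective feeders (-1.42 ± 0.07, adjusted p = 2.01e-14). Its relative Mdm4, on chromosome 1, went the other way, from 149, 152 and 153 to 200.5, 210.2 and 243 CPM (0.53 ± 0.11, adjusted p = 0.000118). Neither gene's groups overlapped. The phosphatase gene Ppm1d (-0.36 ± 0.08) and the ubiquitin ligase gene Rchy1 (-0.59 ± 0.08) were also lower. Of 11 upstream kinases and cofactors, 8 were higher and 1 lower. The higher ones included the kinase gene Hipk2 (1.77 ± 0.12), the acetyltransferase gene Kat5 (0.85 ± 0.08) and the checkpoint kinase gene Atr (0.82 ± 0.10). The lower one was Ppp1r13l (-0.89 ± 0.11), the p53 inhibitor of the ASPP family, counted here among the cofactors and not among the 5 above. Atm, the double-strand break kinase, was not called (0.10 ± 0.12).

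Of 38 p53 targets tested, 24 were lower and 10 higher, with a median of -1.02. Of 13 apoptosis targets, 11 were lower and 1 higher. Perp, a membrane protein gene, stood at 24.2, 24.5 and 22.2 CPM in control and 4.38, 5.197 and 5.33 CPM in p53-defective feeders (-2.24 ± 0.11). Pmaip1, which encodes the BH3-only protein Noxa, went from 113, 104 and 98.9 to 35.7, 29.2 and 32.4 CPM. In both genes every p53-defective library was below every control library. Apaf1, the caspase-activating scaffold (-1.27 ± 0.09), Bax (-0.89 ± 0.09) and the death receptor gene Tnfrsf10b (-1.34 ± 0.07) were lower as well, and the death receptor gene Fas was higher (0.61 ± 0.13). Trp53inp1, which encodes a p53-induced nuclear protein, fell from 734, 698 and 672 to 253, 227 and 227 CPM.

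Of 12 arrest and stress targets, 8 were lower and 3 higher. Cdkn1a stood at 680.4, 649 and 663 CPM in control and 305, 290.4 and 186 CPM in p53-defective feeders (-1.35 ± 0.12, adjusted p = 4.6e-10), so that it remained well expressed in every p53-defective library and was lowest in replicate 3. Ccng1, a cyclin G gene, fell from 848, 822 and 891 to 357, 327 and 289 CPM, and Btg2, an antiproliferative gene, from 295, 292 and 296 to 95.8, 85.9 and 76.8 CPM. Gdf15, a stress-induced secreted factor gene, had a larger log2 change (-2.35 ± 0.15), from 24.8, 26.8 and 23.6 to 6.28, 4.56 and 3.92 CPM. The members that rose were Gadd45a (1.33 ± 0.09), a growth arrest gene, Plk2 (1.33 ± 0.11), a polo-like kinase gene, and Ier5 (0.67 ± 0.09), a stress response regulator. The 13 repair and metabolism targets were split, with 6 higher and 5 lower: Ckap2, a mitotic spindle gene, rose from 39.2, 36.5 and 42.1 to 95.97, 95.1 and 99.8 CPM, higher too were Tigar (0.73 ± 0.10) and Rrm2b (0.52 ± 0.12), and Sesn2 (-1.32 ± 0.09), Polk (-1.02 ± 0.09) and Ercc5 (-1.28 ± 0.07) were lower. The lipid hydrolase gene Abhd4 was lower as well (-1.96 ± 0.08).

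**Figure D1:**
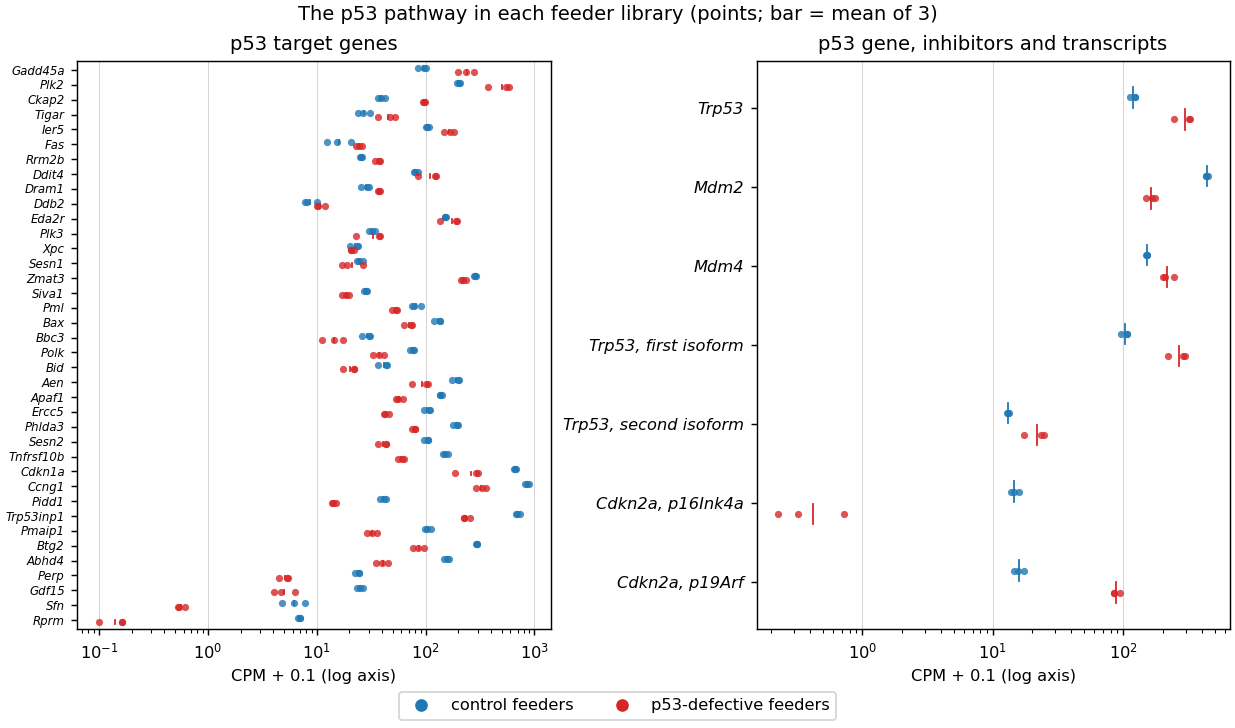
CPM plus 0.1 on a log axis for p53 target genes (left) and for Trp53, Mdm2, Mdm4 and transcripts of Trp53 and Cdkn2a (right; the first and second Trp53 isoforms are NM_011640 and NM_001127233), with 1 point per library and a bar at the mean of 3. Of 38 targets 24 were called lower, and the p16Ink4a and p19Arf transcripts of Cdkn2a moved in opposite directions.

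The Cdkn2a locus gave opposite changes for its products. From separate first exons the gene makes p16Ink4a, an inhibitor of Cdk4 and Cdk6, and p19Arf, which inhibits Mdm2. The p19Arf transcript (NM_009877, first exon at chromosome 4 from 89294334 to 89294653) stood at 14.4, 15.4 and 17.1 CPM in control and 85.2, 84.2 and 93.4 CPM in p53-defective feeders. The p16Ink4a transcript (NM_001040654, first exon from 89281986 to 89282192) stood at 13.6, 15.7 and 14.3 CPM in control and 0.618, 0.222 and 0.126 CPM in p53-defective feeders. All 3 p53-defective libraries were above the controls for p19Arf and below 0.7 CPM for p16Ink4a. The gene as a whole was higher (1.54 ± 0.09, adjusted p = 8.58e-13), and its neighbour Cdkn2b, which encodes p15Ink4b, was not called (-0.02 ± 0.10, overlapping groups). Transcript counts are the deposited estimates and were not tested.

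Among the other inhibitors of cyclin-dependent kinases, Cdkn1c, the imprinted p57 gene, had the largest fall, from 335, 319 and 366 CPM in control to 0.381, 0.462 and 0.552 CPM in p53-defective feeders (-9.49 ± 0.15). Every p53-defective library was below 1 CPM. Cdkn2d, the p19Ink4d gene, was higher (1.78 ± 0.11), as was Cdkn2c (0.78 ± 0.16). The D cyclin genes Ccnd1 (-0.82 ± 0.08), Ccnd2 (-0.35 ± 0.08) and Ccnd3 (-0.53 ± 0.10) were lower, and their kinase partner Cdk6 rose from 24.8, 26.9 and 27.4 to 182, 159.7 and 126 CPM (2.56 ± 0.13). Cdk4 was not called (0.12 ± 0.08). Cdk2 was higher (0.65 ± 0.07). Of the other cyclins, the mitotic genes Ccnb1 (2.11 ± 0.09), Ccnb2 (1.66 ± 0.09) and Ccna2 (0.81 ± 0.07) rose, and Ccne1, of the G1/S transition, fell (-0.53 ± 0.08). Of the retinoblastoma family, Rb1 (-0.93 ± 0.14) and Rbl2 (-1.29 ± 0.15) were lower and Rbl1 (0.89 ± 0.10) was higher. Among E2F factors, E2f7 (1.73 ± 0.10) and E2f4 (1.04 ± 0.08) rose. The repressor gene E2f6 fell (-0.36 ± 0.08).

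All 26 G2/M genes tested rose, 25 of them at least 2-fold, with a median of 2.03. Their summed level was 506, 473 and 496 CPM in the control libraries and 1977, 2002 and 1846 CPM in the p53-defective ones, with no overlap. Cenpf stood at 7.64, 7.11 and 9.15 CPM in control and 57.6, 55.3 and 56.2 CPM in p53-defective feeders (2.82 ± 0.11). Ube2c, the ubiquitin-conjugating enzyme of the anaphase-promoting complex, stood at 12.1, 10.001 and 12.2 CPM in control against 75.02, 69.7 and 63.03 CPM (2.60 ± 0.11), and Aurka, a spindle pole kinase gene, at 8.88, 8.09 and 9.09 CPM in control against 55.4, 56.9 and 38.8 CPM (2.53 ± 0.13). Replicate 3 was the lowest of its group for Aurka and Ube2c, above all controls. The smallest rise was that of Cdc25b (0.95 ± 0.08), the phosphatase that activates Cdk1. Tpx2, the spindle factor that activates Aurka, rose as well (2.62 ± 0.08).

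Of 24 DNA replication genes, 23 were higher and 1 lower, with a median of 1.26. The licensing gene Cdt1 rose from 22.6, 25.3 and 19.7 to 87.3, 88.2 and 81.4 CPM and Gins1, of the replicative helicase, from 3.45, 3.41 and 3.301 to 19.1, 16.5 and 13.4 CPM (2.27 ± 0.14). The 6 subunits of the MCM helicase rose by 0.87 (Mcm3) to 1.58 (Mcm4). The exception was Rrm2, the small subunit of ribonucleotide reductase, at 91.5, 81.1 and 79.2 CPM in control and 52.2, 49.3 and 32.1 CPM in p53-defective feeders (-0.91 ± 0.12). Its groups did not overlap, and the large subunit gene Rrm1 was higher (0.68 ± 0.07). The polymerase epsilon gene Pole rose too (1.82 ± 0.08). Whether the share of cycling cells or the RNA per cell moved cannot be told apart in these bulk libraries, here and for each group below.

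The fibroblast label was checked against 18 fibroblast markers, of which 17 were lower in p53-defective feeders and none was higher (median -2.56). Several defining markers were near absence. Postn, a matricellular protein gene, stood at 5309, 5660.0 and 6775 CPM in control and 2.41, 2.48 and 4.29 CPM in p53-defective feeders. Lum, a collagen-binding proteoglycan gene, stood at 219.9, 252 and 341 CPM in control against 0, 0.0577 and 0.123 CPM, with 3 counts in all in the p53-defective group. Fap, the fibroblast activation protease gene, stood at 9.79, 11.5 and 11.4 CPM in control against 0.0635, 0.289 and 0.184 CPM. Mfap5, a microfibril gene of fibroblasts, stood at 19.2, 20.3 and 23.3 CPM in control against 0.127, 0 and 0 CPM. Others stayed well above background: Col1a1 at 2204, 2427 and 3169.8 CPM in p53-defective feeders, Vim at 806, 864 and 931 CPM and the surface glycoprotein gene Thy1 (-4.82 ± 0.11) at 29.8, 30.1 and 40.8 CPM. The receptor genes Pdgfra (-3.35 ± 0.22) and Pdgfrb (-5.23 ± 0.14) were lower too. Some markers of the labelled cell type were thus near 0 in p53-defective feeders and others were reduced but well detected, and these feeders are named here by their label only.

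Markers of mesothelium, the layer that lines body cavities, went the other way: 16 of 19 were higher and 2 lower, with a median of 4.40. Wt1, a transcription factor gene of mesothelium and kidney, stood at 0.679, 0.578 and 0.985 CPM in control and 109, 104 and 122 CPM in p53-defective feeders (7.21 ± 0.15). Msln, the mesothelin gene, stood at 25.9, 26.8 and 31.7 CPM in control against 690.2, 755 and 879 CPM (4.78 ± 0.13), and Upk3b, an uroplakin gene, at 5.77, 6.01 and 7.702 CPM in control against 339.5, 367 and 666 CPM (6.14 ± 0.26). None of these genes overlapped, and for Upk3b replicate 3 was the highest. The summed level of the 19 was 256 to 309.8 CPM in control and 3714 to 5083 CPM in p53-defective libraries. Keratins 8 and 18, which form a filament pair in simple epithelia and mesothelium, did not follow: Krt8 stood at 1.81, 1.68 and 1.91 CPM in control against 0.317, 0.346 and 0.49 CPM, Krt18 at 7.13, 5.897 and 5.27 CPM in control against 0.0635, 0.404 and 0.368 CPM, both lower, while Krt19 rose (3.62 ± 0.11). Krt7 was not called (0.38, or -0.24 without p53-defective replicate 3). The 12 epithelial markers summed to at most 9.32 CPM in any feeder library. This list was chosen with its values already known and its counts are a description.

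**Figure D2:**
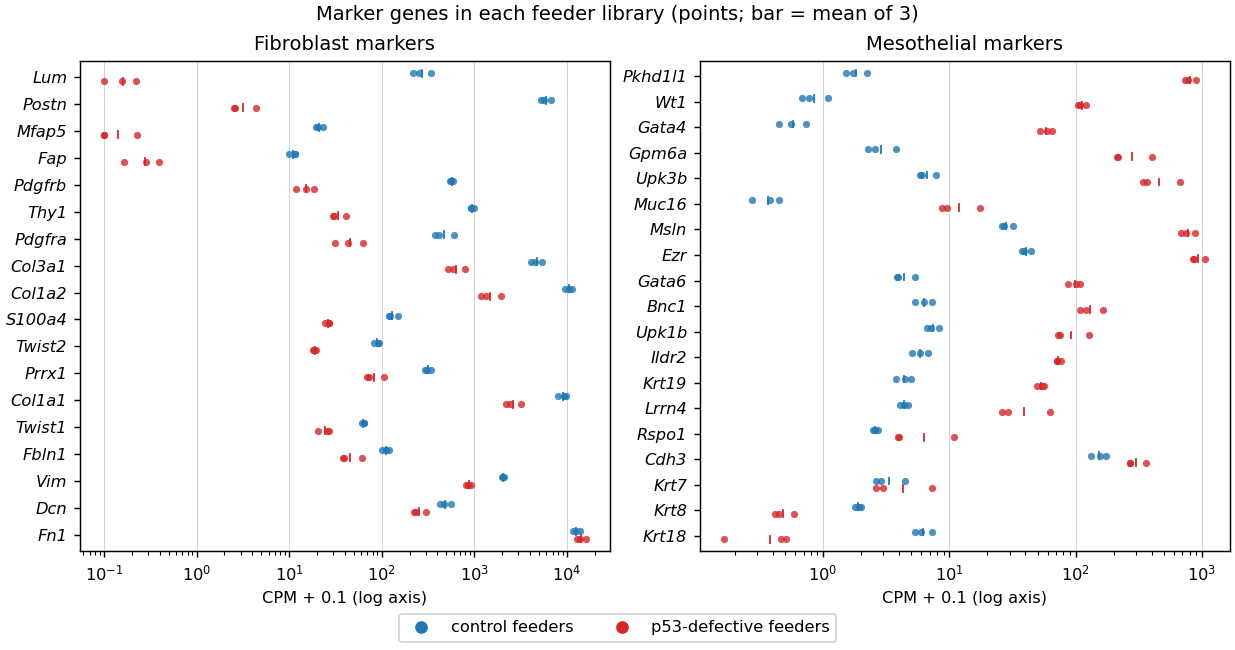
CPM plus 0.1 on a log axis for fibroblast markers (left) and mesothelial markers (right) in each feeder library, with 1 point per library and a bar at the mean of 3. The p53-defective points lie left of the control points for 17 of 18 fibroblast markers. They lie right of them for most mesothelial markers, with Krt8 and Krt18 lower and Krt7 not called.

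Markers of other cells that a fibroblast culture can hold were measured beside these groups. Of 14 macrophage markers tested, 13 were lower and 1, Cd14, higher. Their summed level was 144 to 196 CPM in control and 11.1 to 14.96 CPM in p53-defective libraries, and in the latter Adgre1, Ptprc, Fcer1g, Tyrobp, C1qa, C1qb, C1qc and Spi1 had 0 counts. Lyz2, the lysozyme gene of macrophages, stood at 91.7, 124 and 124 CPM in control and 0.0635, 0.0577 and 0 CPM in p53-defective feeders. Cd68, a lysosomal glycoprotein that fibroblasts also express, was lower (-1.78 ± 0.17). The 11 endothelial markers summed to 24.2 to 26.4 CPM in control and 16.7 to 19.9 CPM in p53-defective libraries, without overlap. Of 12 ES cell markers, 2 were higher and 1 lower. Pou5f1, Zfp42, Tdgf1, Utf1 and Fgf4 had 0 counts in every feeder library. Sox2 was lower, at 0.905, 0.289 and 0.869 CPM in control with 0 counts in p53-defective feeders, and Nanog was higher, at 0.283, 0.347 and 0.232 CPM in control against 0.635, 0.577 and 1.41 CPM. Tfcp2l1, a transcription factor gene of ES cells and some epithelia, was at 43.8, 45.5 and 58.4 CPM in p53-defective feeders against 0.453, 0.636 and 0.347 CPM.

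Collagen genes were lower as a group: 31 of 38 tested fell and 4 rose, with a median of -2.27, or -2.10 with genes at 0 counts set to the bound that 3 counts over the group allow. The summed level of the list was 35297, 38878 and 41743 CPM in control and 8585, 9462 and 12724 CPM in p53-defective replicates 1 to 3, replicate 3 being the nearest to the controls. The type I chains did not fall alike: Col1a1 changed by -1.81 ± 0.15 and Col1a2 by -2.81 ± 0.15 on the log2 scale. The type VI chains were split more widely, with Col6a1 at 1309, 1412 and 1538 CPM in control and 616, 674 and 1042 CPM in p53-defective feeders, and Col6a3 at 716, 786 and 849 CPM in control against 0.635, 0.751 and 1.41 CPM. Every p53-defective library was below 2 CPM for Col6a3, the long chain that joins the other chains in the type VI monomer. The type V chain Col5a1 was lower (-2.39 ± 0.12), and Col12a1, a fibril-associated chain, fell from 2105, 2186 and 2328 to 14.5, 23.4 and 19.5 CPM. Col10a1 had 0 counts in the p53-defective group and was at least 240-fold lower. Col3a1, of skin and vessel fibrils (-2.90 ± 0.14), Col5a3 (-2.97 ± 0.14), Col14a1 (-4.26 ± 0.14), Col8a1 (-2.86 ± 0.11) and Col18a1, the source of endostatin (-1.11 ± 0.10), were lower. The one fibrillar chain that rose was Col11a2 (0.54 ± 0.13).

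The basement membrane genes changed in composition rather than in one direction. Of the type IV collagen chains, the common pair Col4a1 (-1.55 ± 0.14) and Col4a2 (-1.76 ± 0.15) was lower, and the chains of the alternative network rose: Col4a5 from 178, 188 and 212 to 448, 461 and 577 CPM and Col4a6 from 7.53, 8.27 and 11.5 to 159.7, 174 and 233 CPM (4.38 ± 0.19). Of the laminin α chains, Lama5 rose from 66.4, 72.5 and 81.7 to 537, 594 and 761 CPM (3.10 ± 0.14) and Lama1 from 10.98, 12.1 and 6.49 to 32.4, 31.5 and 28.3 CPM. Lama2 fell from 90.02, 87.8 and 114 to 0.889, 0.866 and 1.78 CPM and Lama4 from 182, 207 and 229.9 to 25.7, 31.2 and 36.5 CPM. None of these 4 chains had overlapping groups. The β1 and γ1 chains that pair with them were not called (Lamb1 -0.03 ± 0.11, Lamc1 0.22 ± 0.14). The linkers Nid1 (-1.27 ± 0.14) and Nid2 (-2.29 ± 0.14) were lower, and Hspg2, the perlecan gene, was not called (-0.03 ± 0.15). The β2 chain Lamb2 was lower (-1.14 ± 0.12). Agrn, the agrin gene, was lower by a small margin (-0.39 ± 0.11), a call lost without p53-defective replicate 1. Over the 15 laminin and linker genes 5 were higher and 7 lower, with a median of -0.03.

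All 12 elastic fibre genes were lower, each at least 2-fold, with a median of -3.23. Eln, the elastin gene, stood at 527, 567 and 606 CPM in control and 0.0635, 0.0577 and 0.0613 CPM in p53-defective feeders, 3 counts in all. The microfibril genes Mfap4, at 988, 1106 and 1147 CPM in control against 0.254, 0.52 and 0.92 CPM, and Mfap2, at 147, 158 and 153 CPM in control against 0.381, 0.404 and 0.981 CPM, were near absence as well, while the fibrillin gene Fbn1 was still at 164, 174 and 175 CPM (-2.42 ± 0.14). Of 14 crosslinking and processing enzymes 11 were lower, the lysyl oxidase gene Lox among them (-2.03 ± 0.14), and the prolyl and lysyl hydroxylase genes P4ha1 (0.90 ± 0.11), P4ha2 (0.23 ± 0.08, a call lost without control replicate 1) and Plod2 (1.10 ± 0.08) were higher. Of 12 proteoglycans and matricellular proteins 10 were lower, and the connective tissue growth factor gene Ccn2 rose from 171, 184 and 218 to 602, 687 and 1350.2 CPM, highest in replicate 3. Fmod, the fibromodulin gene, was lower (-4.85 ± 0.28, or -5.75 without p53-defective replicate 3), and among the enzymes so were the procollagen protease gene Adamts2 (-3.11 ± 0.13) and P4ha3 (-2.53 ± 0.19).

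Fibronectin RNA did not pass the test, but the mix of its transcripts differed. Fn1 (Entrez 14268, chromosome 1 from 71585473 to 71653280) stood at 11683, 12414 and 14002 CPM in control and 12737, 13954 and 1.597e+04 CPM in p53-defective feeders, with overlapping groups (0.16 ± 0.14, adjusted p = 0.291). The gene can include or skip the extra domain exons A and B, which are spliced in mainly in embryonic and wounded tissue. The 273-base exon B (71613763 to 71614035 on GRCm38) is carried by 1 of the 7 curated transcripts, which held 14.3%, 15.5% and 10.4% of the counts of those 7 in control and 50.4%, 52.4% and 44.4% in p53-defective feeders. Transcripts with the 270-base exon A (71603660 to 71603929), 4 of the 7, held 57.8%, 57.1% and 52.2% in control and 95.6%, 95.0% and 89.1% in p53-defective feeders. The groups did not overlap for either exon, and replicate 3 was the lowest of its group for both. These 7 transcripts took 81.3% to 86.5% of the gene's counts. The shares are estimates from reads that transcripts have in common, their depth at each exon is unknown, and they were not tested.

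The integrins that bind fibronectin and related ligands were lower or not called: of 8 tested, 6 fell and none rose. Itga4, the α4 chain, had 0, 0 and 0.184 CPM in p53-defective feeders against 45.2, 51.3 and 58.03 CPM in control, and Itga8, the α8 chain, stood at 0, 0.116 and 0.123 against 32.1, 35.1 and 42.7 CPM. The counts of Itga4 in p53-defective feeders were all in replicate 3, and without it the group had none. Itgb3 (-2.85 ± 0.16) and Itgb5 (-1.87 ± 0.08), partners of αv, were lower, and Itgb1, shared by most of these receptors, was lower (-0.57 ± 0.08). Itgav was not called (-0.20 ± 0.12). For Itga5, the α5 chain, the groups overlapped, at 279.8, 307 and 302 CPM in control against 231, 257 and 289 CPM (-0.19 ± 0.09, adjusted p = 0.0445), and the call ended in 9 of the alternative analyses. Among the other integrins, the laminin receptor chains Itga3 (3.48 ± 0.15) and Itga6 (1.08 ± 0.14) rose, and the collagen receptor chains Itga11 (-6.53 ± 0.12) and Itga10 (-2.53 ± 0.16) fell. Itga3 stood at 15.3, 16.2 and 16.7 CPM in control and 146, 168 and 223 CPM in p53-defective feeders. Itga7, a laminin receptor chain of muscle, was lower (-1.47 ± 0.12).

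Of 10 adhesion adaptors and kinases downstream of integrins, 7 were higher and 2 lower. The focal adhesion kinase gene Ptk2 stood at 72.1, 68.6 and 65.5 CPM in control and 128, 127 and 122 CPM in p53-defective feeders, and the scaffold gene Bcar1 at 64.9, 63.3 and 71.99 CPM in control against 137, 141 and 134 CPM. Both were without overlap. Pxn, the paxillin gene, was higher too (0.88 ± 0.07). Ilk (-0.91 ± 0.08) and Parva (-0.81 ± 0.09), partners in the complex that links integrins to actin, were lower. Of the other ligands on the list, Tnc, the tenascin-C gene, fell from 1435, 1522 and 1192 to 22.9, 32.6 and 41.6 CPM and Spp1, the osteopontin gene, from 2232, 2468 and 2413 to 1225, 1286 and 943 CPM.

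**Figure D3:**
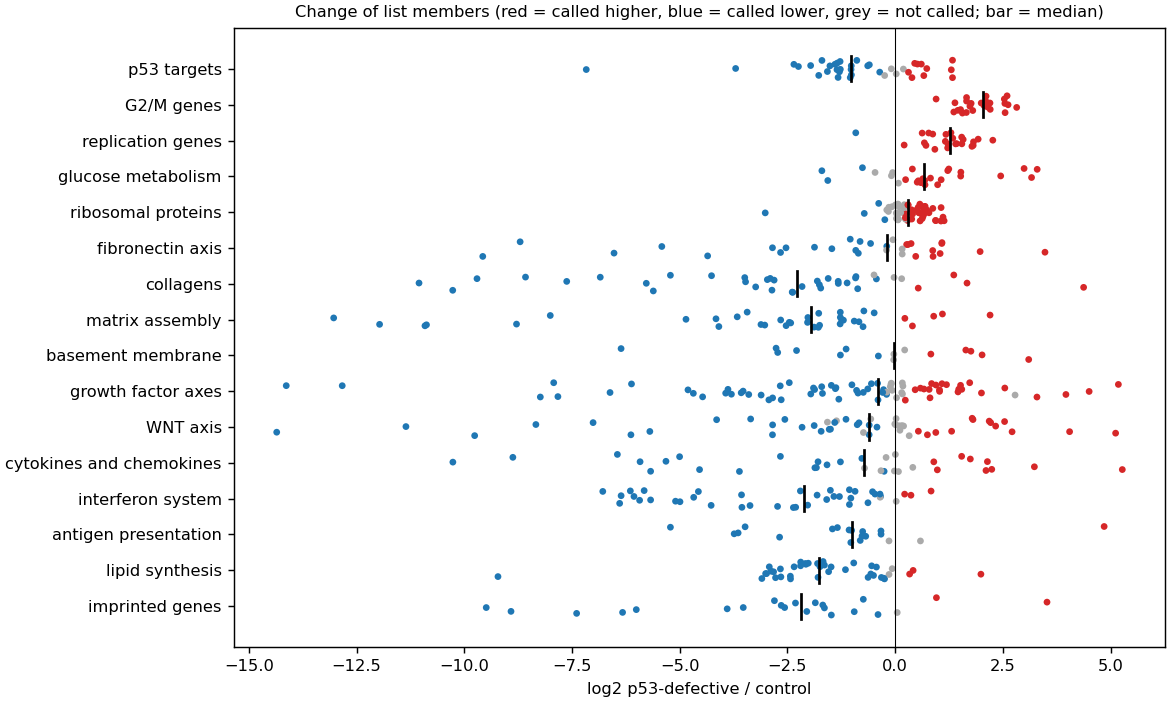
Log2 fold change of p53-defective over control feeders for each tested member of 16 gene lists, with a black bar at the list median. G2/M and replication genes lie right of 0 (Rrm2 excepted), collagens, matrix assembly, interferon, lipid synthesis and imprinted genes lie mostly left of it, and members of the other lists lie on both sides.

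Hox genes, which record the position of a cell along the body and limb axes, differed by cluster and by paralog number. Of 38 tested, 25 were lower and 10 higher. All 9 HoxD genes were lower. Hoxd13, the most distal of them and a gene of the distal limb, stood at 52.9, 49.5 and 47.6 CPM in control and had 0 counts in every p53-defective library, at least 823-fold lower. Hoxd11 and Hoxd12 also had 0 counts there, against 5.21, 4.28 and 5.15 and 4.53, 4.05 and 5.096 CPM. In HoxA, paralogs 1 to 6 were higher and 9 to 13 lower: Hoxa4 went from 0.17, 0.636 and 0.463 to 3.87, 4.45 and 3.92 CPM and Hoxa11 from 21.05, 20.5 and 23.7 to 3.999, 4.45 and 4.54 CPM. In HoxB, paralogs 2 to 4 were higher and 5 to 13 lower, Hoxb9 falling from 71.01, 77.4 and 61.6 to 5.27, 5.37 and 4.41 CPM. In HoxC, 6 of 9 were lower and Hoxc13 rose (1.61 ± 0.12), and Hoxc6 fell from 45.5, 51.2 and 56.4 to 0.254, 0.346 and 0.674 CPM. Other members at 10 CPM or more in a group followed these lines. In HoxA, Hoxa3 (1.82 ± 0.13) and Hoxa5 (1.53 ± 0.14) rose, and Hoxa9 (-1.27 ± 0.16) and Hoxa10 (-1.16 ± 0.13) fell. In HoxB, Hoxb2 (1.10 ± 0.13), Hoxb3 (0.65 ± 0.11) and Hoxb4 (0.64 ± 0.11) rose, and Hoxb7 (-3.14 ± 0.22) and Hoxb8 (-4.00 ± 0.20) fell. Hoxc8 (-6.06 ± 0.24), Hoxc10 (-4.11 ± 0.21), Hoxd3 (-4.20 ± 0.21) and Hoxd8 (-2.31 ± 0.14) fell. The call of Hoxa6 (0.40 ± 0.17, adjusted p = 0.0369) ended in 6 of the alternative analyses.

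**Figure D4:**
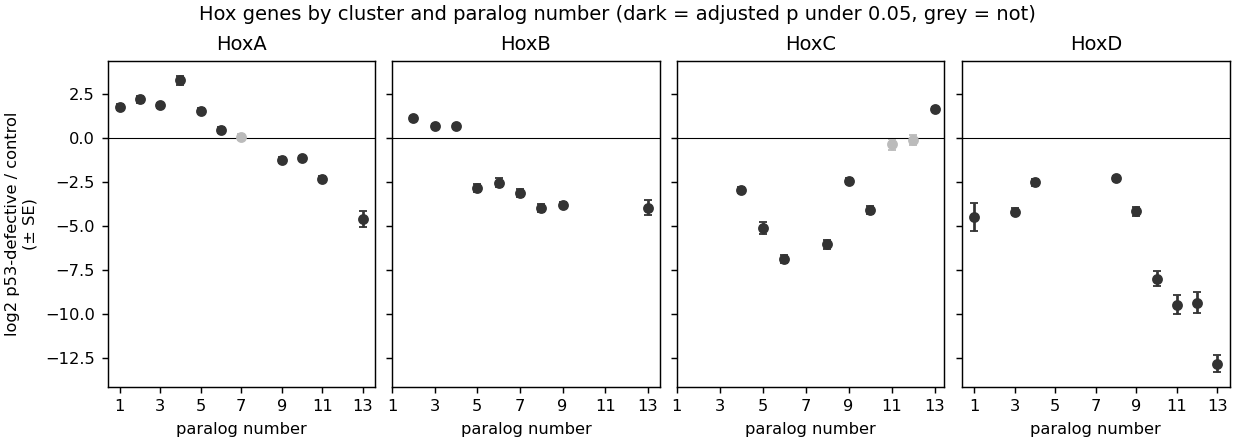
Log2 fold change (± SE) of p53-defective over control feeders for the tested Hox genes, by cluster and paralog number, dark where the adjusted p was under 0.05. HoxA and HoxB genes of low paralog number lie above 0 and those of high number below it, and all 9 HoxD genes lie below 0.

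Transcription factors of limb and mesenchyme were lower more often than higher, 24 and 6 of 35 (median -2.10). The T-box genes of the limb buds, Tbx5 of the forelimb and Tbx4 of the hindlimb, stood at 10.6, 9.19 and 8.86 and 23.9, 21.97 and 23.1 CPM in control. In p53-defective feeders Tbx5 had 0 counts (at least 158-fold lower) and Tbx4 had 1 count. Irx1 stood at 79.95, 82.1 and 76.1 CPM and Irx2 at 72.8, 80.6 and 72.8 CPM in control, and both had 0 counts in p53-defective feeders (at least 1307-fold and 1241-fold lower). Alx4, a homeobox gene of limb and skull, stood at 11.9, 10.2 and 11.8 CPM in control against 0, 0 and 0 CPM. Among the 6 that rose were factors of visceral and coelomic mesoderm: Tcf21 from 0.396, 0.636 and 1.16 to 7.93, 8.08 and 17.6 CPM, Foxf1 from 3.23, 2.89 and 3.88 to 11.8, 9.99 and 11.96 CPM and Nr2f2 from 20.2, 18.8 and 21.3 to 69.1, 57.1 and 56.3 CPM. Of 19 factors of other lineages 7 rose and 6 fell. Gata6 went from 3.79, 3.76 and 5.27 to 99.9, 86.7 and 108 CPM and Gata4 from 0.453, 0.347 and 0.637 to 59.3, 64.6 and 52.2 CPM. Foxa2, an endoderm and floor plate factor gene, went from 1 count over the control libraries to 11.04, 9.82 and 13.7 CPM, while Sox17 had 0 counts in all 6 libraries. Sox9, of cartilage (-1.69 ± 0.17), and Runx1, of blood and mesenchyme (-1.23 ± 0.10), were lower.

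Imprinted genes, which are expressed from one parental copy and many of which control embryonic growth, were lower in 19 of 22 cases and higher in 2 (median -2.18, or -1.95 with genes at 0 counts at their bound). Both parental classes fell: 8 of 9 maternally and 11 of 13 paternally expressed genes. Mest, a paternally expressed gene of mesoderm, stood at 398, 418 and 367 CPM in control and 0.635, 0.751 and 1.04 CPM in p53-defective feeders (-8.92 ± 0.12), and Grb10, an adaptor that limits insulin signalling, at 728, 681 and 744 CPM in control against 11.6, 13.2 and 8.58 CPM (-6.01 ± 0.12). Each of the p53-defective libraries was below 2 CPM for Mest and below 14 CPM for Grb10. Plagl1 (-2.31 ± 0.17), Impact (-2.05 ± 0.08) and Peg3 (-1.85 ± 0.14) were lower as well. Zim1 went from 13.3, 11.7 and 19.3 to 0.0635, 0.0577 and 0.123 CPM, and Dlk1, a Notch ligand relative (-3.53 ± 0.13), and its neighbour Rtl1 (-2.80 ± 0.17) were lower. The rises were Phlda2 (3.53 ± 0.37), a placental growth regulator at low level, and Usp29, whose groups overlapped. Without p53-defective replicate 3 or 1, or control replicate 1, 1 imprinted gene was called higher.

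In the insulin-like growth factor (IGF) axis both ligands and 4 of 6 binding proteins were lower and 1 binding protein was higher. Igf2, itself imprinted, stood at 4087, 4277 and 4238 CPM in control and 571, 594 and 851 CPM in p53-defective feeders (-2.64 ± 0.12), and Igf1 at 31.2, 32.3 and 63.1 CPM in control against 2.03, 2.43 and 6.499 CPM (-3.53 ± 0.33, or -4.23 without p53-defective replicate 3). The binding protein gene Igfbp5 went from 2377, 2496 and 2052 to 0.19, 0 and 0.184 CPM and Igfbp3 from 621, 690.2 and 542 to 45.0, 53.7 and 34.1 CPM, while Igfbp4 rose to 458, 478 and 622 CPM (0.81 ± 0.11). The signalling receptor Igf1r was not called (-0.09 ± 0.11), and Igf2r, the clearance receptor, was lower (-1.48 ± 0.14). Igfbp2 was lower (-8.24 ± 0.19, or -9.01 without p53-defective replicate 3). The insulin receptor gene Insr was called lower by a small margin (-0.40 ± 0.13), a call lost without control replicate 2 or p53-defective replicate 1 or 2.

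TGF-β, BMP and FGF genes moved in both directions. Tgfb1 (-1.31 ± 0.08), Tgfb3 (-1.90 ± 0.22) and the receptor Tgfbr2 (-1.70 ± 0.09) were lower, and Tgfb2 was not called (0.15 ± 0.19). Bmp4 rose from 26.8, 27.2 and 33.6 to 76.5, 84.1 and 130.2 CPM while Bmp1, a procollagen protease despite its name, fell (-2.46 ± 0.09). The BMP antagonist gene Grem1 was lower (-0.74 ± 0.12). Fgf2, the basic FGF of stem cell media, fell from 58.2, 53.5 and 45.5 to 2.48, 2.66 and 5.15 CPM, and Fgf7 from 25.7, 24.3 and 22.7 to 1.46, 1.27 and 2.21 CPM. Fgf5 rose from 0.566, 0.809 and 0.927 to 13.1, 14.96 and 24.5 CPM. Vegfa (1.46 ± 0.09) and Pdgfb (5.18 ± 0.28) rose, Vegfc (-2.67 ± 0.11) and Pdgfd (-6.12 ± 0.18, or -6.87 without p53-defective replicate 3) fell, and the neurite growth factor genes Ptn and Mdk went from 925, 967 and 1027 and 81.3, 84.6 and 87.2 CPM to 6.09, 6.24 and 17.4 and 0.444, 0.346 and 0.307 CPM (Ptn -6.62 ± 0.29, or -7.30 without p53-defective replicate 3). Over all 76 genes of these axes, 23 rose and 42 fell. Among receptors, Fgfr3 rose (3.29 ± 0.22), Acvr2b rose (1.19 ± 0.13), and Fgfr1 (-0.86 ± 0.07), Acvr2a (-1.37 ± 0.09) and the endoglin gene Eng (-4.68 ± 0.14) fell. Of the latent TGF-β binders, Ltbp4 (1.48 ± 0.14) and Ltbp1 (1.03 ± 0.12) rose and Ltbp2 fell (-4.47 ± 0.26, or -5.20 without p53-defective replicate 3). The activin antagonist gene Fst rose (0.79 ± 0.12) and its relative Fstl1 fell (-2.93 ± 0.15). The EGF receptor ligand genes Areg, from 0.736, 1.27 and 0.579 to 16.2, 18.999 and 5.395 CPM, and Ereg, from 8.6, 8.27 and 7.64 to 43.1, 38.8 and 16.5 CPM, rose, as did Pdgfc (0.95 ± 0.10) and Fgf21 (1.09 ± 0.10), while Vegfd (-3.11 ± 0.20) and Gas6 (-1.96 ± 0.16) fell.

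In the WNT pathway the secreted modulators were lower, 8 of 12 with 2 higher, and their summed level was 537 to 686 CPM in control against 31.04 to 70.2 CPM. Dkk3 stood at 342, 388 and 438 CPM in control and 0.127, 0.116 and 0.184 CPM in p53-defective feeders (-11.36 ± 0.18), and the receptor ligand Rspo2 at 19.7, 22.5 and 18.9 CPM in control against 0.254, 0.289 and 0.307 CPM. Lgr5, an R-spondin receptor gene and stem cell marker, stood at 127, 133 and 173 CPM in control and had 0 counts in p53-defective feeders, at least 2371-fold lower. The WNT ligands were split, 5 higher and 5 lower of 12. Wnt11 rose from 1.41, 1.68 and 2.08 to 57.6, 60.3 and 62.3 CPM (5.12 ± 0.12), and Wnt5a (-1.88 ± 0.13) fell, as did Wnt16, from 24.2, 22.1 and 24.3 CPM to 1 count over the p53-defective libraries. Of 8 WNT target genes 2 were higher and 2 lower, with Axin2 lower (-1.14 ± 0.20) and Tcf7 higher (2.71 ± 0.10). Nkd2, a feedback inhibitor gene, was the other that fell (-3.35 ± 0.16) and Znrf3, which removes receptors from the surface, the other that rose (1.81 ± 0.13). Of 17 receptors and co-receptors 4 were higher and 9 lower, with Fzd6 (1.79 ± 0.08) and Lrp6 (0.54 ± 0.10) among the former and Fzd2 (-2.16 ± 0.10) and Ror2 (-1.53 ± 0.09) among the latter. Of the modulators, Dkk2 was lower (-8.34 ± 0.33, or -9.13 without p53-defective replicate 3).

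Of 33 cytokines and chemokines 17 were lower and 9 higher. Cxcl12, the ligand of Cxcr4, stood at 802, 818 and 987 CPM in control and 158, 170.4 and 406 CPM in p53-defective feeders, with replicate 3 well above the other p53-defective libraries (-1.83 ± 0.26). Ccl7 (-2.66 ± 0.15) and Cxcl5 (-5.92 ± 0.24, or -6.85 without p53-defective replicate 3) were lower, and Cxcl1 rose from 1.98, 1.79 and 2.49 to 19.4, 18.999 and 20.6 CPM. Cxcl14 went from 22.7, 23.8 and 20.2 to 0.0635, 0 and 0.0613 CPM, and Cxcl16 was higher (1.54 ± 0.12). Ccl2, a monocyte attractant gene, was lower by a small margin (-0.26 ± 0.10), a call lost in 8 of the alternative analyses. Lif, the cytokine that sustains mouse ES cells, was higher, at 16.2, 18.2 and 12.5 CPM in control and 31.04, 29.9 and 26.4 CPM in p53-defective feeders (0.90 ± 0.12, adjusted p = 3e-07). Its groups did not overlap. Clcf1, another cytokine of that family, was higher too (0.98 ± 0.09).

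Interferon genes were lower as a group. Of 20 interferon-stimulated genes tested, 19 fell and none rose (median -4.62), and Oasl1 was not called (-0.35 ± 0.19). Ifit1 stood at 36.04, 36.1 and 46.9 CPM in control and 0.381, 0.808 and 1.104 CPM in p53-defective feeders (-5.68 ± 0.25). Usp18, a negative regulator of interferon signalling, stood at 23.1, 21.4 and 24.8 CPM in control against 0.19, 0.116 and 0.307 CPM (-6.79 ± 0.20), and Isg15, a ubiquitin-like modifier gene, at 55.4, 53.1 and 58.95 CPM in control against 2.09, 2.599 and 2.33 CPM. For these genes no p53-defective library exceeded 3 CPM. Of the genes whose promoters are printed above, Ifit3 stood at 96.6, 101 and 119 CPM in control against 0.635, 1.16 and 2.02 CPM (-6.36 ± 0.23), and Rsad2 at 7.53, 7.75 and 6.89 CPM in control against 0.127, 0 and 0.123 CPM. Oasl2 was lower as well (-5.93 ± 0.14). The complex that binds the response element was represented by Stat2 (-2.73 ± 0.09) and Irf9 (-2.31 ± 0.08), both lower. The sensor genes Ifih1 (-3.56 ± 0.18) and Sting1 (-2.03 ± 0.09) were lower and the adaptor gene Mavs was higher (0.37 ± 0.07). Irf7, the amplifier of the interferon response (-3.57 ± 0.21), the RNA sensor gene Ddx58 (-1.42 ± 0.10) and the receptor chains Ifngr2 (-0.63 ± 0.07) and Ifnar1 (-0.34 ± 0.07) were lower. Over the whole list of 40, 35 fell and 3 rose, Mavs, Ifnar2 and Irf5, and without p53-defective replicate 3 a single gene was called higher. The part of the macrophage RNA given above in this group was not tested.

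Of 19 antigen presentation genes, 16 were lower and 1 higher, with a median of -1.01. The class I light chain gene B2m stood at 903, 959 and 1001 CPM in control and 474, 486 and 443 CPM in p53-defective feeders, and H2-Q4, of a multicopy class I family, at 42.3, 47.6 and 41.5 CPM in control against 3.68, 3.29 and 2.88 CPM. The immunoproteasome gene Psmb8 (-3.48 ± 0.24) and the peptide transporter gene Tap1 (-1.46 ± 0.09) were lower. So were the trimming peptidase gene Erap1 (-1.34 ± 0.13) and the class I gene H2-D1 (-0.77 ± 0.09). The gene that rose was Cd74, the class II invariant chain, from 2.09, 2.49 and 2.14 to 65.6, 73.3 and 55.7 CPM (4.85 ± 0.14), while the class II chain genes H2-Ab1 and H2-Eb1 were at most 0.173 CPM in p53-defective feeders.

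Cholesterol synthesis genes fell together: all 19 were lower, 18 at least 2-fold (median -2.19). Hmgcs1, the synthase at the entry of the pathway, stood at 851, 798 and 652 CPM in control and 102, 99.5 and 85.4 CPM in p53-defective feeders (-3.01 ± 0.10). Idi1 (-3.09 ± 0.16) and Hsd17b7 (-2.98 ± 0.14) were among them, and Sqle fell the least (-0.32 ± 0.12, overlapping groups, a call lost in 5 of the alternative analyses). Insig1, which holds the sterol sensor in place, was lower (-2.66 ± 0.12). The transcription factor gene of the pathway, Srebf2, was higher (0.42 ± 0.08). Of 12 fatty acid synthesis genes 10 were lower and 2 higher, with Fasn at 697, 689 and 659 CPM in control against 227, 238 and 191 CPM. Acss2 (-2.88 ± 0.10) and Acly (-1.79 ± 0.08), which make cytosolic acetyl-CoA, and the elongase gene Elovl6 (-2.65 ± 0.13) were lower, and Acacb (1.99 ± 0.18) and Elovl5 (0.34 ± 0.07) were higher. The sterol exporter gene Abcg1 was lower (-2.82 ± 0.19). Control replicate 3 was the lowest control library for all 19, and above every p53-defective library except for Sqle.

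Of 26 genes of glucose metabolism 19 rose and 3 fell, with a median of 0.66. The lactate exporter gene Slc16a3 stood at 19.6, 23.01 and 31.5 CPM in control and 235, 239.8 and 191 CPM in p53-defective feeders (3.17 ± 0.13), Ndrg1, a hypoxia-responsive gene, at 60.1, 59.3 and 47.3 CPM in control against 444, 502 and 382 CPM, and the oxygen sensor gene Egln3 at 6.22, 6.47 and 7.41 CPM in control against 34.6, 43.8 and 31.5 CPM. None of these overlapped. The glucose transporter gene Slc2a1 (1.25 ± 0.10), Hk2 (1.53 ± 0.19) and Pgk1 (1.22 ± 0.09) were higher. Pgam1 was higher (1.07 ± 0.07), and the brain-type isozyme genes Aldoc (-1.70 ± 0.15) and Eno2 (-1.56 ± 0.09) were lower. The third fall, that of Eno1 (-0.76 ± 0.08), is uncertain, since Eno1 summed with its near-identical copy Eno1b was higher by 0.55. Car9, another hypoxia-responsive gene, was not called (-0.47 ± 0.22), nor were Pkm (-0.09 ± 0.07) and Aldoa (0.08 ± 0.07).

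The largest changes among genes at 100 CPM or more included copies of other genes. Eno1b, a copy of the enolase gene Eno1, rose from 0.113, 0 and 0.174 to 593, 658 and 572 CPM while Eno1 fell from 726, 687 and 672 to 416, 448 and 369 CPM. Their sum was 727, 687 and 672 CPM in control and 1009, 1106 and 940.5 CPM in p53-defective feeders. Hmga1b rose from 0, 0.116 and 0.347 to 339.5, 341 and 233 CPM, Hmga1 was lower (-1.18 ± 0.11), and their sum was 252, 245 and 232 CPM in control against 459, 459.9 and 316 CPM. Rpl34-ps1 and Rpl34 summed to 248, 248 and 253 CPM in control and 277, 281 and 261 CPM in p53-defective feeders, although the copy went from 0.17, 0 and 0.116 to 244, 247 and 235 CPM and Rpl34 fell (-3.02 ± 0.11). In each pair the parent was lower and the copy higher, and the sum was higher by 0.55 (Eno1), 0.76 (Hmga1) and 0.13 (Rpl34) on the log2 scale, so the single values are uncertain. The other large rises were those of Ifi202b, an interferon-inducible gene known to differ between inbred strains, from 1 control count to 135, 118 and 82.2 CPM, and of Gm4737, Gm6139 and Ugt1a6b, to 318, 328 and 304, to 434, 383 and 338 and to 122, 112 and 133 CPM. No sum with a copy was made for Gm4737, Gm6139 and Ugt1a6b, so their rises are uncertain as well. All control counts of Gm4737 were in control replicate 3 and those of Gm6139 and Ugt1a6b in control replicate 2. Named genes rose likewise: the podocalyxin gene Podxl, from 1.19, 0.694 and 0.347 to 169, 188 and 242 CPM, the complement gene C3, from 2.89, 2.197 and 3.24 to 488, 638 and 859 CPM, and Pkhd1l1, from 1.41, 1.62 and 2.14 to 731, 771 and 898 CPM.

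The largest falls included Lgr5, Apod, Igfbp5, Kif1a, Eln, Crabp1, Itgbl1, Lum and Aspn. Apod, an apolipoprotein gene, stood at 125, 136 and 155 CPM in control with 0 counts in p53-defective feeders, at least 2275-fold lower. Crabp1, a retinoic acid-binding protein gene, stood at 764, 751 and 747 CPM in control against 0.0635, 0.231 and 0.0613 CPM, and Aspn, a small proteoglycan gene, at 582, 602 and 688 CPM in control against 0.0635, 0.116 and 0.307 CPM. Kif1a, an axonal kinesin gene, stood at 289.7, 311 and 303 CPM in control with 1 count in p53-defective replicate 3. Of the 15389 genes tested, 37 at 10 CPM or more in control feeders had 0 counts in p53-defective feeders, against 2 genes in the reverse direction.

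Per length, in the deposited TPM values, the translation factor gene Eef1a1 was the most abundant gene in both groups, at a mean of 9586 TPM in control and 13952 TPM in p53-defective feeders. The 10 most abundant genes held 5.71% to 6.15% of TPM in control and 7.51% to 7.68% in p53-defective libraries. In control feeders they included the ribosomal protein genes Rpl41, Rps27, Rpl23a and Rpl12. The others after Eef1a1 were Ftl1, Tpt1, Lgals1, Tmsb4x and Bgn, the biglycan gene, at 4628 TPM. Bgn was at rank 126 in p53-defective feeders (1107 TPM). In p53-defective feeders the 9 genes after Eef1a1 were all of ribosomal proteins, led by Rps18 (8968 TPM) and Rps12 (8049 TPM).

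Changes were not even along the genome. Over 9754 genes at a mean of 10 CPM or more, the median log2 ratio to the control mean (with 0.5 CPM added) was 0.04, 0.04 and 0.03 in p53-defective replicates 1, 2 and 3. On chromosome 15 it was 0.66, 0.66 and 0.66 (400 genes) and on chromosome 19 it was 0.56, 0.57 and 0.54 (364 genes). Chromosome 14 had the lowest values, -0.36, -0.39 and -0.37 (324 genes), followed by chromosome 13 at -0.24, -0.27 and -0.29. The control libraries stayed within -0.02 and 0.02 on every chromosome, but each is part of the mean it is compared with. The p53-defective libraries are not part of that mean, so the narrow control band is no measure of how far their medians should vary. Genes of a chromosome are not independent and no test was made, and chromosome copy number was not measured.

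**Figure D5:**
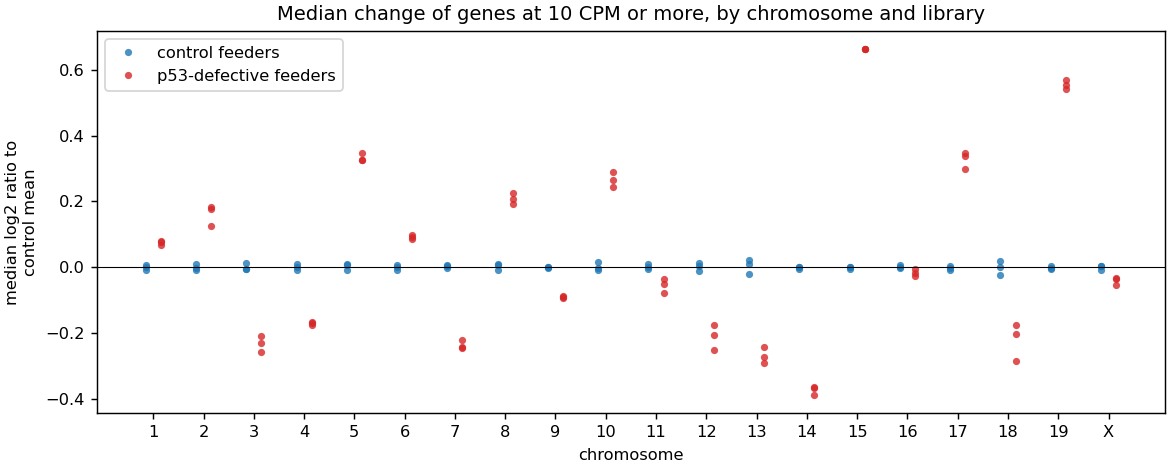
Median log2 ratio to the control mean of genes at a mean of 10 CPM or more, by chromosome, with 1 point per library (0.5 CPM added). The control points lie at 0, and the 3 p53-defective points lie close together, highest on chromosomes 15 and 19 and lowest on chromosome 14.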

How the data were processed

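Poly(A) RNA of 6 feeder libraries was sequenced after Trizol extraction and an Illumina TruSeq mRNA kit, per the labels' protocols. Alignment and assembly tools listed in the submitters' processing notes are HISAT2 (2.1.0), StringTie (1.3.3b) and SAMtools (1.4), beside DESeq2 (1.2.10) and the builds mm10 and GRCm38. Strand is not given in the sources used here. The deposited table holds estimated counts and TPM for 75416 RefSeq transcripts (32625 curated, 42791 predicted). Here the authors' estimated counts were summed per gene (19630 genes, 19482 with a symbol from RefSeq GRCm38.p6) and rounded. Of the sums, 89.26% were whole within 0.05. Another 36 columns of per-sample values were not used.

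Genes passing edgeR's filter (15389, with 4241 removed) were fitted with edgeR 4.0.16 (TMM, robust quasi-likelihood, R 4.3.3) over all 18 libraries in 6 groups of 3, which share one estimate of the spread, and p53-defective feeders were contrasted with control feeders. SE is the log2 fold change divided by the square root of F. A fold against a group at 0 counts used a floor of 3 counts over the group. On simulated counts for this comparison, 87% of 1.5-fold and 98% of 2-fold changes were recovered, with 7 unchanged genes called among 15266 fitted. The simulation changed 100 genes at each fold and held all others equal, whereas 74.3% of genes were called in the data. It therefore does not check the scaling or the adjustment of p where most genes differ. Alternatives included DESeq2 1.42.0, limma 3.58.1 (voom), other filters, the 6 feeder libraries alone, a replicate block and leaving out each library. Transcript models were those of GENCODE M21, matched by RefSeq identifier.

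The members, lists and tests were chosen with earlier results of these data known. Named genes are Trp53, Mdm2, Mdm4, Cdkn1a and Fn1, up to 3 rises and 3 falls per list and role among called genes at 10 CPM or more without overlap, other list members whose own value is given, the 10 largest rises and falls at 100 CPM or more, and the 10 genes highest in TPM in each group. Promoters shown hold a motif and are those of the called members with the largest changes of their list, up to 2 a motif. A few genes that this rule selects are not reported here.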

Additional observations from a re-analysis of the deposited data

How the results depend on the processing

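No called gene and no count reversed its direction under the alternatives run. Some genes that were not called changed sign without p53-defective replicate 3. Acta2 went from 0.26 to -0.18, Krt7 from 0.38 to -0.24 and Trp73, of the p53 family, from 0.06 to -1.92. The counts of genes higher and lower ran from 5052 and 4654 to 5963 and 5996. Requiring 5 CPM in 3 libraries, which leaves 12513 genes tested, gave 2124 genes lower by at least 2-fold (3193 in the report), 3 basement membrane genes higher (5), 10 cytokines lower (17), 4 macrophage markers lower (13, with 5 of them tested) and 1 imprinted gene higher (2), and limma-voom also gave 1 imprinted gene higher. Leaving out each library in turn gave 5348 to 5753 genes higher and 5378 to 5996 lower, 1 to 2 imprinted genes higher (1 without control replicate 1 or p53-defective replicate 1 or 3), 1 to 3 interferon genes higher (1 without p53-defective replicate 3) and 2 to 4 ribosomal protein genes lower (2 without control replicate 2 or p53-defective replicate 2). With a replicate block over all 18 libraries, 5497 genes were higher and 5887 lower, and with the replicate block in the 6 feeder libraries alone 5261 and 5527, against 5052 and 5306 without it. Deviations of same-numbered feeder libraries correlated at 0.1087, 0.0544 and 0.2227, and those of differently numbered ones at -0.1666 to 0.0753. P53-defective replicates 1 and 3 correlated best with the control of their own number, and replicate 2 with control replicate 1 (0.0737). Whether the numbers pair the libraries is thus not settled, and the main fit used no pairing.

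The single genes followed here were a part of all genes tested. Among them, 4 to 15 calls were lost under the alternatives that kept all 6 libraries, but none with the block over 18 libraries. When 1 library was left out, 17 to 24 were lost (24 without p53-defective replicate 1). Genes that a filter removed from testing were not counted as lost. Over all genes tested, the block over 18 libraries kept 5485 of 5528 higher and 5866 of 5905 lower calls. Without p53-defective replicate 1, 5457 and 5300 of these calls were kept. Genes at a few counts set the limit of depth: 1 count was 0.0566 to 0.0635 CPM, so folds of genes near 0 in one group move with single counts.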

Other observations

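The immediate early genes, transcribed within minutes of a growth stimulus, gave 8 higher and 11 lower of 21. Myc, a driver of cell growth located on chromosome 15, stood at 50.9, 49.6 and 34.2 CPM in control and 338, 320.2 and 248 CPM in p53-defective feeders (2.75 ± 0.12). Atf3, a stress factor gene, stood at 43.1, 39.4 and 29.2 CPM in control against 202, 195 and 104 CPM, with replicate 3 the lowest of its group and above all controls. Ier3 (1.60 ± 0.11), Fosl2 (0.81 ± 0.09), Junb (0.72 ± 0.09) and Srf (0.51 ± 0.08) were higher. Nr4a2 (-2.90 ± 0.18), Nr4a1 (-0.58 ± 0.11), Egr2 (-1.69 ± 0.20), Egr1 (-0.49 ± 0.11), Fos (-0.98 ± 0.09) and Jun (-0.40 ± 0.08) were lower. For Fosl1 the groups overlapped, with p53-defective replicate 3 at 13.4 CPM against 43.2 and 40.5 CPM in the others.

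Of 53 ribosomal protein genes 31 were higher and 4 lower, with a median of 0.30. Rpl30 (1.14 ± 0.10), Rpl8 (1.11 ± 0.09), Rpl37 (1.07 ± 0.11), Rps18 (1.06 ± 0.08) and Rps15 (0.74 ± 0.10) were higher. The 4 lower genes were Rpl24 (-0.72 ± 0.09), Rpl34, whose copy is described above, and by small margins Rpl29 (-0.24 ± 0.09) and Rps29 (-0.38 ± 0.11). The count of 4 lower genes was 2 without control replicate 2 or p53-defective replicate 2.

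Smooth muscle genes were split, with 8 of 13 lower and 3 higher. Acta2, the smooth muscle actin of activated fibroblasts, was not called: it stood at 670.4, 615 and 606 CPM in control against 534, 581 and 1148 CPM, with p53-defective replicate 3 above every other library. The myosin light chain gene Myl9 stood at 60.1, 53.4 and 66.1 CPM in control against 1.59, 1.44 and 4.66 CPM, and Actg2 was lower too (-4.38 ± 0.39, or -5.02 without p53-defective replicate 3), as was Des, the desmin gene shared by smooth and skeletal muscle (-2.61 ± 0.15). Smtn (0.72 ± 0.07), Tpm1 (0.74 ± 0.12) and Cnn1 (2.25 ± 0.39, or 1.58 without p53-defective replicate 3) were higher. Among skeletal muscle genes, 7 of 11 tested were lower and 2 higher, and 9 others were below the filter on low counts. Tnnt2, the cardiac troponin T gene, was lower (-3.82 ± 0.19). Of the myogenic regulators, Myod1, Myf5, Myf6 and Myog had at most a few counts in any feeder library, while Pax3, a gene of somites and neural crest, stood at 0.962, 0.347 and 0.174 CPM in control against 18.1, 16.6 and 19.4 CPM.

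Among neural markers, 5 of 11 tested were lower and 2 higher. Sox10, the Schwann cell and neural crest factor gene, stood at 1.92, 2.14 and 1.74 CPM in control with 0 counts in p53-defective feeders. Nes, the nestin gene, was higher (0.97 ± 0.10). Of the Y-linked genes, Ddx3y stood at 1.24, 1.27 and 1.27 CPM in control and Kdm5d at 0.339, 0.405 and 0.695 CPM, both with 0 counts in p53-defective feeders. Eif2s3y, which has a close relative on the X chromosome, was at 1.58, 1.91 and 2.08 CPM in control against 2.67, 2.31 and 1.96 CPM, with overlapping groups.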
